A study of Mus musculus with 8 samples.

Results

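The loci described are 10 imprinted mouse genes, H19, Igf2, Igf2r, Kcnq1ot1, Meg3, Mest, Peg3, Peg10, Plagl1 and Snrpn, together with the 9 DNA stretches taken as their imprinting control regions. The genes were taken by name from the GENCODE M21 annotation, which lists 55450 genes, and every peak from 5 kb upstream of a gene to 5 kb past its end was collected from 8 peak lists. These windows covered 623 kb in all and held 75 peaks. No member was filtered on its values, and 9 of the 10 carried at least 1 peak in some list, H19 being the exception. In mm10, the genes on the plus strand were Meg3 at chr12:109541001-109571726, Mest at chr6:30723547-30748465, Peg10 at chr6:4747306-4760517 and Plagl1 at chr10:13060504-13131694. Those on the minus strand were H19 at chr7:142575529-142578143, Igf2 at chr7:142650766-142666816, Igf2r at chr17:12682406-12769664, Kcnq1ot1 at chr7:143203458-143296549, Peg3 at chr7:6703892-6730431 and Snrpn at chr7:59982495-60140219. Kcnq1ot1, H19 and Meg3 are non-coding, and the other 7 members encode proteins.

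Chromatin immunoprecipitation followed by sequencing (ChIP-seq) had been carried out in E14Tg2a cells, a mouse embryonic stem cell line, used at passages 37 to 40. Pluripotent cells (ESCs) were grown with leukemia inhibitory factor (LIF), and differentiating cells, called neuronal cells (NCs) in the study, were LIF-free monolayers given 1 µM retinoic acid (RA) for 48 h. Antibodies were directed against the growth factor receptor FGFR1, which also has a nuclear form, the retinoid X receptor RXR and the orphan nuclear receptor Nur77 in both states, and against the replacement histone H3.3 in RA alone. FGFR1 in RA was done in 2 libraries, the second from another experiment by its title. Each of the 6 remaining groups rests on 1 library, so no difference between LIF and RA, or between factors, could be tested, and all of them are given as descriptions of these libraries. The cells of a library came from pooled plates of the same line, and a peak does not say which parental allele was bound. RNA was not measured in these libraries, so the cell states rest on the labels.

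Imprinted genes are expressed from the copy inherited from 1 parent. Their control regions carry DNA methylation laid down in the egg or in the sperm, which is kept on that copy through the loss of methylation in the early embryo. Where the egg is the source, the region is usually a CpG island at the start of a paternally expressed gene or of a long non-coding RNA, and where it is the sperm, it lies between genes. ESCs are known to keep many of these marks, and to lose some of them in culture. Methylation was not measured here. Each control region was therefore placed from its textbook position and the annotation: the CpG island at the start of Kcnq1ot1, Mest, Peg3, Peg10, Plagl1 and Snrpn, the island at the start of Airn in an intron of Igf2r, each widened by 500 bp, the stretch 2 to 4 kb upstream of H19, which H19 and Igf2 share, and the stretch 10 to 15 kb upstream of Meg3. The 7 islands are the regions methylated in the egg, and the 2 upstream stretches are those methylated in the sperm. The upstream stretches are chr7:142580143-142582143 for H19 and chr12:109526001-109531001 for Meg3. The islands, before widening, are chr7:143294958-143296694 for Kcnq1ot1, chr6:30737592-30738564 for Mest, chr7:6729141-6730537 for Peg3, chr6:4746843-4748740 for Peg10, chr10:13090378-13091403 for Plagl1, chr7:60004661-60005332 for Snrpn and chr17:12741262-12742677 for Airn.

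The FGFR1 libraries in RA differed from each other more than in name. Replicate 1 held 46137 peaks with a median width of 89 bp, and replicate 2 held 14082 peaks with a median width of 311 bp. The other 6 lists held 10634 to 30586 peaks. Some peaks lie on runs in which purines and pyrimidines alternate for 20 bp or more, called tracts here. They made up 21.1 to 51.7% of 7 lists and 1.26% of the list of replicate 2. The local background that the peak caller used was recovered from each peak's fold and p. Its lowest value in each list was divided by the smallest peak width of that list. This floor ran from 1.27 fragments per kb for H3.3 to 7.09 for RXR in LIF. It was 2.71 for FGFR1 in LIF, and 4.16 and 6.78 for FGFR1 in RA.

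The sequences that follow are taken from the control islands with FGFR1 peaks in both RA libraries (Kcnq1ot1, Mest, Peg3, Peg10, Plagl1, Snrpn) and in 1 of them (Airn). They are mm10 stretches of the replicate 2 peaks, read in the direction of the gene and cut so that at most 30 bases of a 5′ untranslated region are included. That of Kcnq1ot1 ends with the replicate 1 peak, and that of Peg10 is the gap between the peaks of replicate 2, most of which a peak of replicate 1 covers. By this cut, that of Plagl1 holds the upstream part of the replicate 2 peak and none of the replicate 1 peak, and the summits at Mest and Plagl1, and that of replicate 1 at Peg3, lie past the printed ends. Capitals mark matches on either strand to any of 5 short words, GGNGGCAG (part of the CTCF motif), AGGTCA (the nuclear receptor hexamer), AAAGGTCA (the Nur77 element, which contains the hexamer), TGCCGC (the ZFP57 word) and GCCATNTT (the YY1 word). The stretches are chr7:143296475-143296666, chr6:30737896-30738079, chr7:6730402-6730555, chr6:4747208-4747335, chr10:13090518-13090817, chr7:60005082-60005234 and chr17:12741419-12741594.
Kcnq1ot1: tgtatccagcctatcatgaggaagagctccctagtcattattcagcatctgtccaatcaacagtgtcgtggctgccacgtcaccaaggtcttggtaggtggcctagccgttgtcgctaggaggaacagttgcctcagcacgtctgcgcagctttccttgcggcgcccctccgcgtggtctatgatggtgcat
Mest: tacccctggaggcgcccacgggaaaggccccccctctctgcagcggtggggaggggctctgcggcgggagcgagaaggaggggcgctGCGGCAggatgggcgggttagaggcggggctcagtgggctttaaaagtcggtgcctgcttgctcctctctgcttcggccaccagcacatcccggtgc
Peg3: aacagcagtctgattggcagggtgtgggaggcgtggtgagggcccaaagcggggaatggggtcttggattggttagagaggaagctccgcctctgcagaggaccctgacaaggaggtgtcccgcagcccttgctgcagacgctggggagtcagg
Peg10: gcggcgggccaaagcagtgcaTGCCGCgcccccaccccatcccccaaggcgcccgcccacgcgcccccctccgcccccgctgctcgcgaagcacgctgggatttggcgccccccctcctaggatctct
Plagl1: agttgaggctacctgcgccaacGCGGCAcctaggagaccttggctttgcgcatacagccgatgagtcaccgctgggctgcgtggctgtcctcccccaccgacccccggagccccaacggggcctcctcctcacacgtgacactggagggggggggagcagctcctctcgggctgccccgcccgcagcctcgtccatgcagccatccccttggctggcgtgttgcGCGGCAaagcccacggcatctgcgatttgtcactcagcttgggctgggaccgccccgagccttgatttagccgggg
Snrpn: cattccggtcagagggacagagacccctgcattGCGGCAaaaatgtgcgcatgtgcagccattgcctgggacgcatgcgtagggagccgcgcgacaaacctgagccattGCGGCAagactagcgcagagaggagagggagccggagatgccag
Airn: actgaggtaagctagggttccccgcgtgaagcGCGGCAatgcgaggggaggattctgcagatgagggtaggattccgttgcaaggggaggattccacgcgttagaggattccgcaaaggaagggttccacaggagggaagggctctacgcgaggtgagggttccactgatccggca

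Every capital run in these 7 stretches is the ZFP57 word, which was found in 5 of them and not in those of Kcnq1ot1 and Peg3. ZFP57 is a zinc finger protein known to keep the methylation of imprinted regions and to read this word when its CpG is methylated. Within 75 bp of the summit, 16 of the 31 peaks in the islands held it, counting the same site again in each library. The share over all peaks lying in CpG islands at starts was 17.5 to 22.6% across the 8 lists. By region the word was near 6 summits at Snrpn, 4 at Mest, 2 each at Airn and Plagl1, 1 each at Peg10 and Peg3 and 0 at Kcnq1ot1. These are not all FGFR1 summits or separate sites. Those at Plagl1 were RXR summits, and most of those at Snrpn lay at a site in the first intron. At Peg3 it was a further peak of replicate 2 at 949 bp. The FGFR1 summits at Plagl1 and at the Peg3 start had no match. A match describes the sequence and does not show that the protein was there.

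The island control regions carried FGFR1 peaks in RA more completely than in LIF. In RA, 6 of 7 islands had a peak in replicate 1 and 7 of 7 in replicate 2, where 53.4% and 52.9% of the 23551 genes with a CpG island at a start had one. In LIF, FGFR1 peaks lay in 3 of 7, against 17.6% of all such islands. RXR peaks lay in 3 of 7 in LIF (45.1% of all) and in 2 of 7 in RA (24.1%). Nur77 peaks lay in 3 of 7 in LIF (25.7%) and in 0 of 7 in RA (25.2%). H3.3, for which 15.7% of all islands had a peak, had none in the 7. The share for RXR was thus near that of all islands, and 7 islands are too few to place the others precisely. The islands bound in both FGFR1 libraries of RA were those of Kcnq1ot1, Mest, Peg3, Peg10, Plagl1 and Snrpn, 6 of 7 against 41.2% of all islands. Of these, Kcnq1ot1, Peg3, Plagl1 and Snrpn had no FGFR1 peak in LIF, 4 of 7 against 25.9% of all islands, and Mest and Peg10 had one. With the lists held to the strongest 10634 peaks each, FGFR1 peaks remained in 3 islands in replicate 1 (18.7% of all islands), 6 in replicate 2 (46%) and 2 in LIF (16%), so the counts of replicate 1 and of LIF were lowered by a factor of 1.5 or more. RXR then had 2 islands in LIF (15.4% of all islands) and 0 in RA (12.6%). Nur77 had 0 in both states, where 10.2% of all islands had a peak in LIF and 7.66% in RA.

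**Figure D1:**
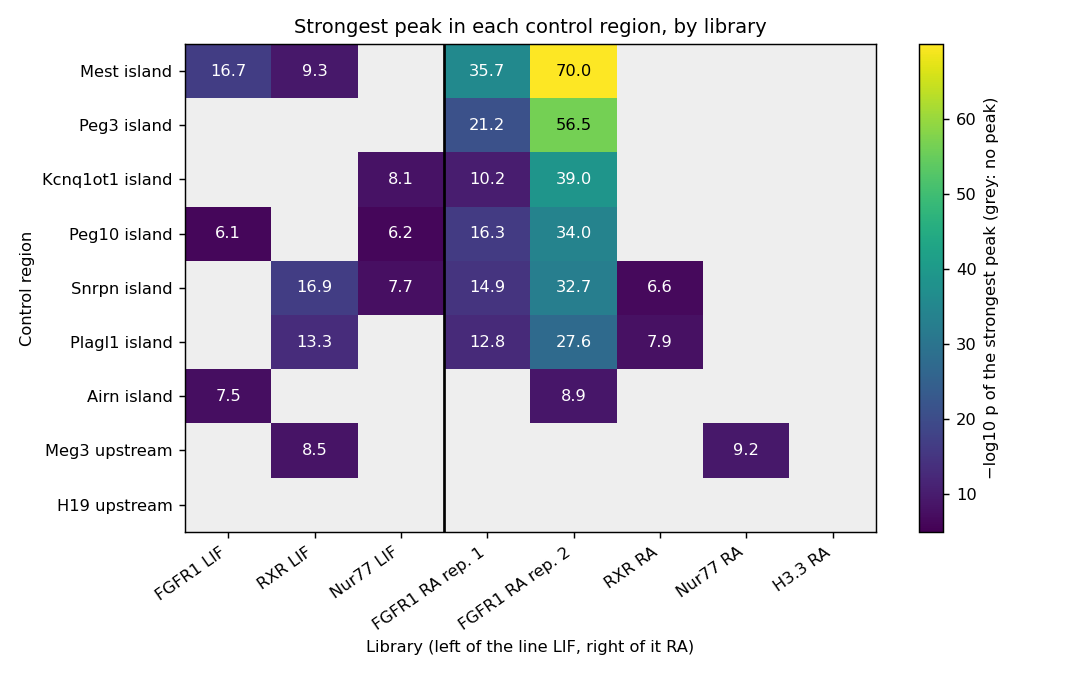
The −log10 p of the strongest peak in each of the 9 control regions (rows) in each of the 8 libraries (columns), with grey where there was no peak. The FGFR1 libraries in RA fill the upper 6 rows, with the highest value of 70.0 at Mest in replicate 2, while the H19 row is empty.

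At Mest, a paternally expressed gene for an enzyme of the hydrolase fold, the FGFR1 peak was the strongest of all control regions. LIF gave a −log10 p of 16.7, and the RA libraries gave 35.7 and 70.0, with 17, 33 and 77 fragments at the summit. The fold over local background was 9.28 in LIF and 15.1 and 15.7 in RA. The background was 0.94 fragments in LIF and 1.25 and 3.98 in RA. The fold adds the same small count to both of its terms, which lowers it most where the background is low. These folds therefore do not rank the libraries or show how close they are. The RA peaks ranked 829th and 516th by p in their lists, within the top 1.8% and 3.66%. Summits lay at 18 bp from the nearest annotated start in LIF and at 56 and 27 bp in RA, in an untranslated exon. RXR had a peak there in LIF (−log10 p 9.3, fold 5.73) and none in RA. Upstream of this island, Nur77 in LIF had a peak beside another start of the gene (−log10 p 9.85, summit at -186 bp).

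At Peg3, which encodes a paternally expressed zinc finger protein, peaks were found in the 2 FGFR1 libraries of RA and in no other list. The −log10 p was 21.2 in replicate 1 and 56.5 in replicate 2, with folds of 11.4 and 13.3. Their summits were 6 bp apart, at 23 and 17 bp from the nearest start, and the interval also covers the stretch toward Usp29, the paternally expressed gene that runs the other way from this island. Replicate 2 had a further peak in the first intron at 949 bp (−log10 p 7.66).

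Kcnq1ot1 is the paternally expressed antisense RNA that silences a domain of neighbouring genes in cis, and its promoter is the control region of that domain. FGFR1 peaks there had a −log10 p of 10.2 in replicate 1 and 39.0 in replicate 2, with folds of 6.8 and 12.7 and summits 4 bp apart, at 46 and 50 bp past the start. Nur77 in LIF had a peak at -11 bp (−log10 p 8.08). No FGFR1 peak was found in the island in LIF. Along the rest of this RNA of 93092 bp there were 2 further peaks, one of replicate 1 with a tract at 86844 bp and one of Nur77 in LIF at 21883 bp.

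Peg10, a retrotransposon-derived gene needed for placenta formation, shares its island with Sgce, which starts on the opposite strand. FGFR1 in RA had 2 peaks around these starts in each library. The peaks inside Peg10 had a −log10 p of 16.3 in replicate 1 and 34.0 in replicate 2 with summits 55 bp apart. The peaks upstream, beside the Sgce start, had 10.5 and 11.5 with summits 83 bp apart. In LIF, FGFR1 had 1 weak peak there (−log10 p 6.12 at -196 bp), which ranked 11311th of 11378, and Nur77 had one at -448 bp (−log10 p 6.23). Replicate 1 had a further peak at 1693 bp, in the margin added to the island (−log10 p 11.2). Its strongest peak in the Peg10 window lay past that margin, at 1979 bp (−log10 p 18.2), where replicate 2 had none. Both LIF peaks stood at the weak end of their lists.

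Plagl1 encodes a zinc finger transcription factor expressed from the paternal copy in most tissues. The FGFR1 peaks in RA had a −log10 p of 12.8 and 27.6, folds of 8.15 and 10.8 and summits 12 bp apart, on either side of a start. RXR had peaks in the same island in both states with summits at other positions. In LIF they lay at -288 and -115 bp (−log10 p 8.33 and 13.3), with 9 and 13 fragments over a background of 0.709. In RA there was another (−log10 p 7.94), with 6 fragments over a background of 0.257. Since −log10 p grows with depth, these values do not rank the states. The stronger LIF peak and the RA peak overlapped the wide FGFR1 peak of replicate 2, and neither overlapped that of replicate 1. At another start of the gene RXR in LIF had a further peak (−log10 p 14.6, summit at 553 bp). FGFR1 in LIF and Nur77 in both states had none there.

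Snrpn encodes a small nuclear ribonucleoprotein of the splicing machinery, shares its start region with Snurf, and its island is the Prader-Willi control region. At the start itself, peaks were found in the FGFR1 libraries of RA alone, with a −log10 p of 14.9 and 32.7, folds of 9.15 and 11.6 and summits at -40 and 9 bp. A second site in the first intron, 796 to 902 bp past the start, was shared by 5 libraries: RXR in LIF (−log10 p 16.9), FGFR1 in RA (10.6 and 12.7), Nur77 in LIF (7.68) and RXR in RA (6.61). Of these 5 values, that of RXR in LIF was the highest and that of RXR in RA the lowest. The site lies outside the island itself and within the 500 bp added to it, so RXR and Nur77 at Snrpn count as control region peaks through that margin. The plot of peak positions shows both sites.

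**Figure D2:**
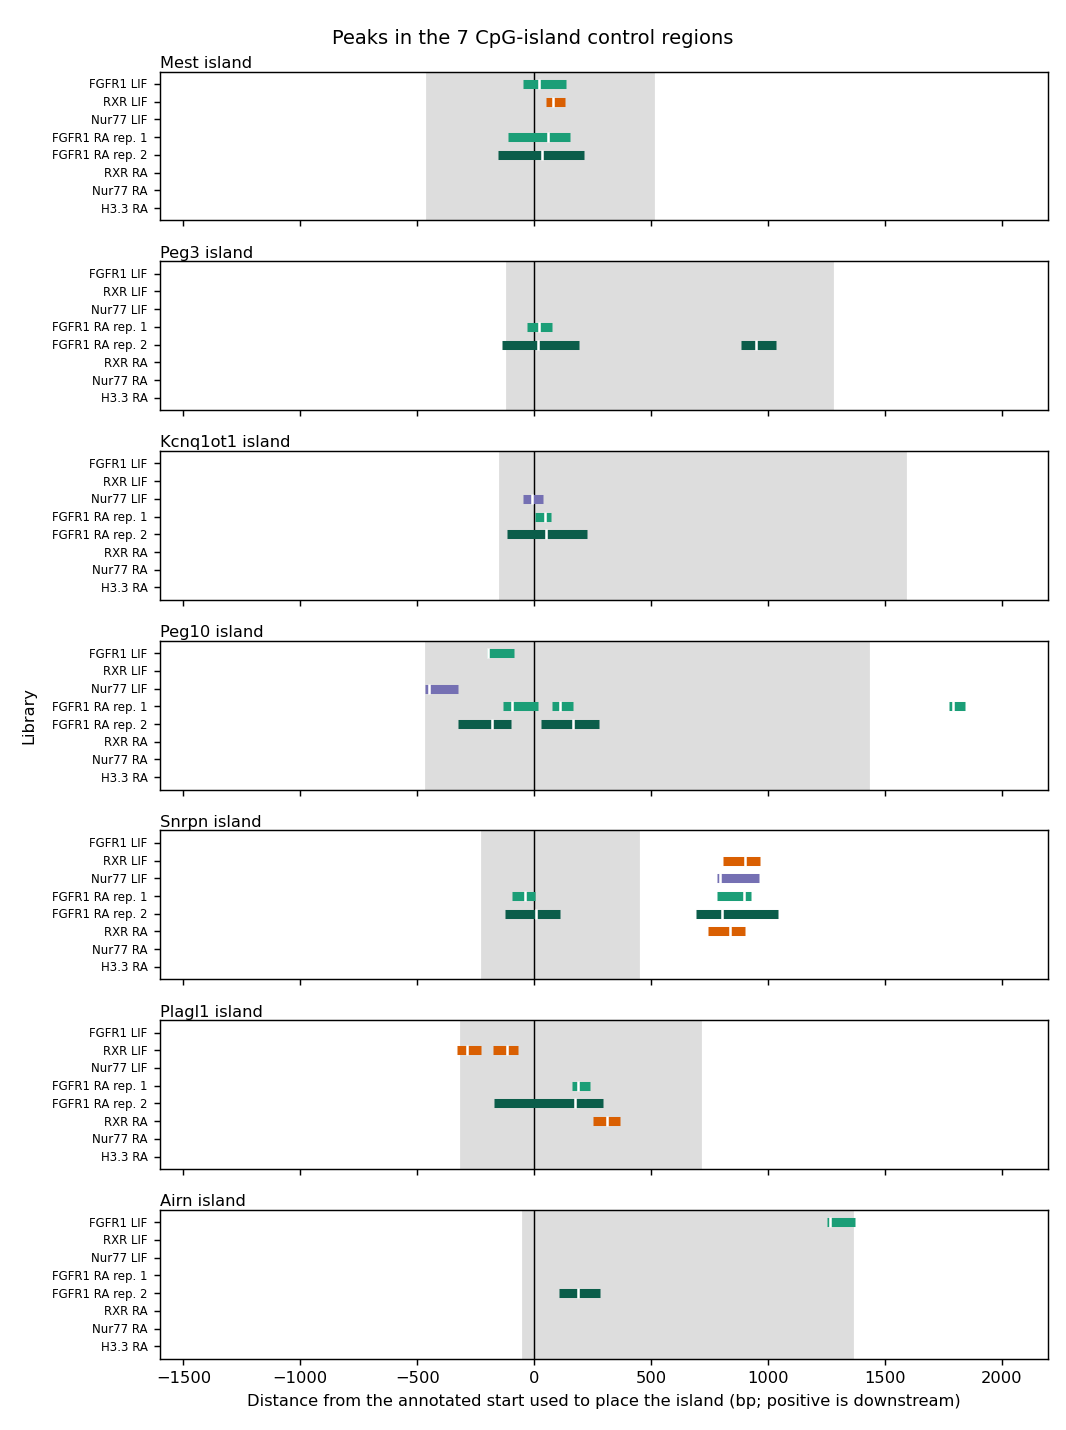
Peaks (bars) and their summits (white ticks) in the 7 island control regions, by library, against the distance in bp from the start used to place each island, with grey for the island and the line at 0 for the start. FGFR1 bars of both RA libraries overlap near the start in the first 6 panels, and the Airn panel has FGFR1 bars at different positions.

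Airn, the paternally expressed non-coding RNA that silences Igf2r, starts from the remaining island. The FGFR1 peaks there differed in place: LIF had one at chr17:12742562-12742683 (−log10 p 7.49) and RA replicate 2 one at chr17:12741419-12741594 (−log10 p 8.88), and replicate 1 had none. By p they stood at 92.8% and 92.6% of the way down their lists, so this region had no site shared between libraries.

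Across the 6 shared islands, 8 overlapping pairs of FGFR1 peaks were found, with summits 4 to 97 bp apart and a median of 39 bp. In the 7 islands, 8 of 9 peaks of replicate 1 were found in replicate 2 and 8 of 10 the other way. For peaks in all CpG islands at starts these shares were 59.2% and 63.9%, and for the whole lists 20.6% and 58.4%. Over the full member windows, including introns and flanks, 9 of 25 peaks of replicate 1 (36%) and 9 of 13 of replicate 2 (69.2%) were shared.

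The regions methylated in the sperm had no FGFR1 peak. They span 2001 bp at H19 and 5001 bp at Meg3. The whole genome held 4.17 FGFR1 peaks per Mb in LIF and 16.9 and 5.17 in RA. At such densities most stretches this short hold none, and the share of like stretches with a peak was not computed. Both regions lie between genes and the 7 others are islands at starts, so the source of the methylation and the kind of region cannot be told apart. No list had a peak in the H19 upstream region, in H19 or in the 5 kb around it. H19 is a maternally expressed non-coding RNA, and this region is known as an insulator that CTCF binds on the maternal copy to keep Igf2 from its enhancers. Windows with no peak in any of the 8 lists were common, with 45.0% of all genes. The nearest peak to the upstream region lay 15.8 to 105 kb away, depending on the library. The region does hold the words that CTCF is known to read. In its 2001 bp the CTCF word matched 5 times, all in the direction of H19, where 44.5% of 55413 stretches at the same distance from a gene start held at least 1 match and 0.289% held as many. They are shown, with the word in capitals and 12 bases on each side, because no listed peak reached them.
site 1: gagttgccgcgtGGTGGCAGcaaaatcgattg
site 2: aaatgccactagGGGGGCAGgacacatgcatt
site 3: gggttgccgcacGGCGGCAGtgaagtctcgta
site 4: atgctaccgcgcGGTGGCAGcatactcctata
site 5: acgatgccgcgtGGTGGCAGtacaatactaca

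Sites 1 to 5 lie at chr7:142582022-142582053, chr7:142581897-142581928, chr7:142581778-142581809, chr7:142580752-142580783 and chr7:142580297-142580328 of mm10 and are read on the minus strand. Sites 1, 3 and 5 also hold the ZFP57 word beside the CTCF word. In no library did a peak in a control region hold the CTCF word within 75 bp of its summit. Of all summits 5.83 to 11% did, and of peaks in CpG islands at starts 10.8 to 14%. Igf2, the paternally expressed growth factor at this locus, had 1 peak in all, of Nur77 in RA in a coding exon that is also an exon of an overlapping transcript (chr7:142654330-142654421, −log10 p 11.3). It lay -1346 bp from the nearest annotated start, and no Igf2 start had a peak within 1 kb.

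At Meg3, a maternally expressed non-coding RNA, the region 10 to 15 kb upstream had a peak of RXR in LIF (−log10 p 8.54) and one of Nur77 in RA (−log10 p 9.17), about -12624 and -14186 bp from the start and not overlapping. FGFR1 and H3.3 had none in that region. The RXR peak, chr12:109528364-109528445, is shown because it holds the ZFP57 word, in capitals, 3 times. Within 75 bp of its summit, which reaches past the peak's end, the word matched 4 times.
Meg3 upstream: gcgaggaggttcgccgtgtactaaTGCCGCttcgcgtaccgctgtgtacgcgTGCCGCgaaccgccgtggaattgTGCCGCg

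At the Meg3 start, FGFR1 in RA replicate 2 had a peak with its summit at -3 bp (−log10 p 11), and replicate 1 had none. Nur77 in RA had one at 793 bp from another start (−log10 p 7.31). The strongest peaks of the locus lay inside the gene on alternating tracts. The stronger tract site was found in 5 libraries, with a −log10 p of 57.5 for Nur77 in RA, 55.1 for FGFR1 in LIF, 22.7 for H3.3, 18.8 for RXR in LIF and 11.8 for RXR in RA. The stretch common to its 5 peaks, chr12:109565127-109565219, is nearly all 1 alternating purine-pyrimidine run, given here in capitals.
Meg3 tract: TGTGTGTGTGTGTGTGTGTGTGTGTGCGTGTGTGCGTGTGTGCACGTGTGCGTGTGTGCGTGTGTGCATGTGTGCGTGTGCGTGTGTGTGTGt

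Neither FGFR1 library of RA had a peak at that tract, although 21.1% of the peaks of replicate 1 hold one. A second tract site, in an intron, was found for RXR in RA (−log10 p 28.3) and LIF (17.1), Nur77 in LIF (12.8) and FGFR1 in RA replicate 1 (6.95). The H3.3 peak at Meg3 was the only one of that list in any member window, and it is on the tract.

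**Figure D3:**
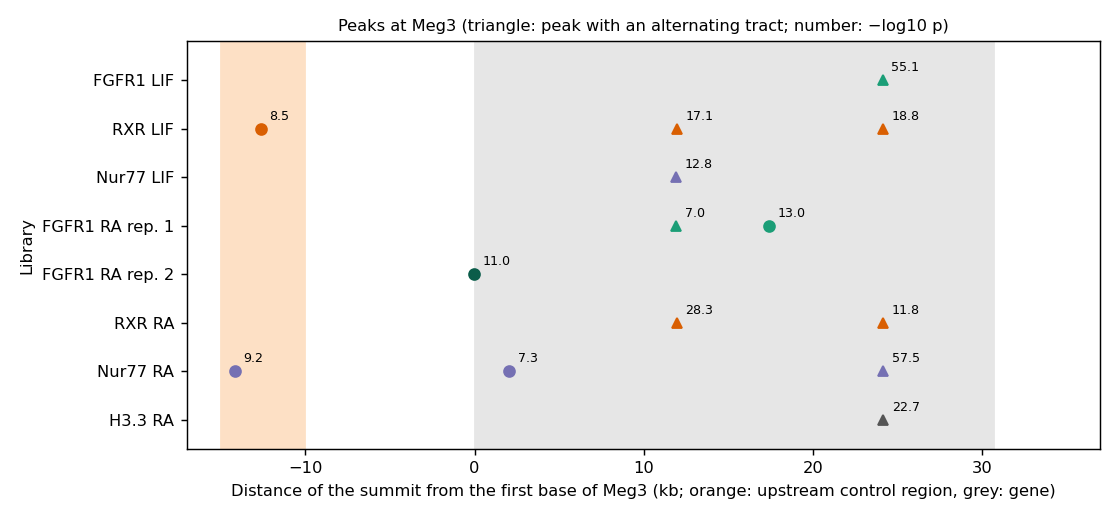
Summits at the Meg3 locus by library against the distance in kb from the first base of the gene, with triangles for peaks that hold an alternating tract and the −log10 p beside each. The columns of triangles inside the gene hold the highest values, up to 57.5, while the upstream control region in orange has 1 peak of RXR in LIF and 1 of Nur77 in RA.

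Igf2r encodes the receptor that clears IGF2 and is expressed from the maternal copy. Its own start, which is not the control region, was bound in 5 libraries. FGFR1 in RA had a −log10 p of 13.3 in replicate 1 and 21.7 in replicate 2, with summits at -61 and -114 bp. Nur77 in RA had 10.4 at -44 bp. RXR had a peak on both sides of the start in both states, with 14.2 at 218 bp and 7.9 at -210 bp in LIF and nearly level values of 8.29 at 155 bp and 8.37 at -75 bp in RA. Just inside the gene there were also peaks of FGFR1 replicate 1 (8.2 at 162 bp) and of Nur77 in RA (9.16 at 112 bp). FGFR1 and Nur77 in LIF and H3.3 had none there. The stretch of the promoter that the peaks of FGFR1, RXR and Nur77 in RA shared, chr17:12769670-12769844, is shown on the minus strand because it carries the nuclear receptor hexamer AGGTCA in capitals.
Igf2r: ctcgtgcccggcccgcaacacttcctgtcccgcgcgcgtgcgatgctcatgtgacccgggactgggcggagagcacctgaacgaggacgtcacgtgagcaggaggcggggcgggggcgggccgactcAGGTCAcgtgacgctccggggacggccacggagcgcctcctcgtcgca

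All 4 RA summits upstream of the start were within 75 bp of this hexamer. Over each whole list the hexamer was near 5.03 to 7.76% of summits. In the control regions, 1 peak, of FGFR1 replicate 2 at Snrpn, and the Nur77 peak upstream of Meg3 held it, and the Nur77 element was near no peak of any member.

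Counted by gene, a start within 1 kb of a peak was found for 7 of the 10 members in FGFR1 RA replicate 1 and 8 in replicate 2, against 25.8% and 23.6% of all genes and 50.8% and 49.6% of the 21951 protein-coding genes. FGFR1 in LIF had 2 (8.32% of all genes, 17% of protein-coding genes). RXR had 4 in LIF (21.2% and 42.6%) and 3 in RA (11.5% and 23.4%), and Nur77 had 4 in LIF (12.9% and 25.6%) and 2 in RA (13.1% and 25.9%). H3.3 had 0 (7.58% and 15.5%). Any annotated start of a gene counts, for members and background alike, and the shares were not matched for the number of starts. Meg3 and Plagl1 have 11 starts each, Mest 10 and Kcnq1ot1 1. Nur77 counts at Mest in LIF and at Meg3 in RA only through a start other than the first. The members bound at a start in both FGFR1 libraries of RA were Igf2r, Kcnq1ot1, Mest, Peg3, Peg10, Plagl1 and Snrpn, and Meg3 was bound in replicate 2 alone among these libraries. With 10634 peaks per list the counts fell to 3 for replicate 1 and 1 for FGFR1 in LIF, and to 0 for Nur77 in both states and for RXR in RA, while replicate 2 had 7. The share of all starts was not computed at that setting. Of all CpG islands at starts, 18.7% then had a peak in replicate 1, 46% in replicate 2 and 16% for FGFR1 in LIF. For Nur77 these shares were 10.2% in LIF and 7.66% in RA, and for RXR in RA 12.6%.

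**Figure D4:**
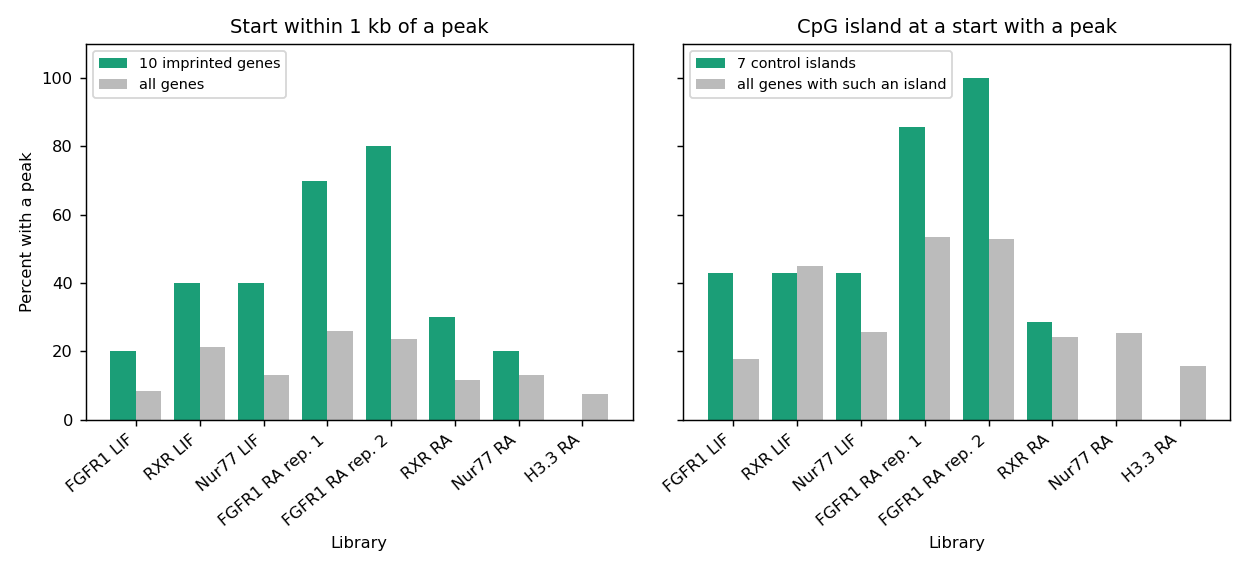
Percent of the 10 imprinted genes with a start within 1 kb of a peak beside all genes (left) and percent of the 7 control islands with a peak beside all genes with a CpG island at a start (right), by library. The FGFR1 libraries in RA have the tallest member bars in both panels, and for RXR in LIF the island bars are nearly level.

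Over the whole windows, members with a peak numbered 4 for FGFR1 in LIF (17.7% of all genes), 8 for replicate 1 (42.5%) and 8 for replicate 2 (29.9%) in RA. RXR had 5 in LIF (34.5%) and 4 in RA (21.8%), Nur77 5 in LIF (26.9%) and 4 in RA (29.0%), and H3.3 1 (16.3%). Members are longer than most genes, with a median length of 28.6 kb against 3.32 kb for all genes, so a window of theirs has more room for a peak. Per Mb, the windows held 6.42 FGFR1 peaks in LIF where the genome held 4.17, and 40.1 and 20.9 in RA where it held 16.9 and 5.17. For RXR they held 19.3 in LIF (genome 11.2) and 9.63 in RA (5.59). For Nur77 they held 11.2 in LIF (8.31) and 11.2 in RA (9.54), and for H3.3 1.6 (3.9). The windows are placed on genes, while the genome values also cover stretches without genes. The 75 peaks formed 39 separate sites, of which 26 were found in 1 library and 7 in at least 4. The 13 sites in islands included no tract, and 6 of the 26 other sites did.

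Of 49 further imprinted genes, 25 had a start within 1 kb of a peak in both FGFR1 libraries of RA, 33 in replicate 1, 29 in replicate 2 and 16 in LIF. RXR had 27 in LIF and 18 in RA, Nur77 12 and 15, and H3.3 12. Over all genes the shares were those given above for starts, 25.8% and 23.6% for the FGFR1 libraries of RA and 8.32% in LIF. Since 43 of the 49 have a CpG island at a start, the shares over all such islands are the closer background. Of the 43, the island had a peak in both FGFR1 libraries of RA in 23 (41.2% of all islands), in replicate 1 in 32 (53.4%), in replicate 2 in 27 (52.9%) and in LIF in 14 (17.6%). For RXR it was 27 in LIF (45.1%) and 15 in RA (24.1%), for Nur77 10 (25.7%) and 14 (25.2%), and for H3.3 11 (15.7%). The 25 were Ascl2, Blcap, Cdkn1c, Copg2, Gab1, Gnas, Grb10, H13, Herc3, Impact, Inpp5f, Magel2, Mcts2, Mkrn3, Nap1l5, Nespas, Nnat, Ppp1r9a, Sgce, Snurf, Trappc9, Tssc4, Ube3a, Usp29 and Zrsr1. Some share a peak with a neighbour, as Nnat with Blcap, Sgce with Peg10, Usp29 with Peg3 and Snurf with Snrpn, so the number of separate sites is smaller. Airn is also among the 49, so its island is counted both here and among the control islands. The strongest in replicate 2 were Tssc4 (−log10 p 69.5) and Cdkn1c (68.8), a cell cycle inhibitor expressed from the maternal copy, both neighbours in the domain that Kcnq1ot1 silences. Replicate 1 had 15.1 and 11.4 at these genes, and no other list had a peak at either. Impact and Inpp5f had a peak in every list. The 9 genes with a start near no peak of any list were Dio3, Gpr1, Kcnk9, Ndn, Rian, Rtl1, Sfmbt2, Slc22a18 and Slc22a2.

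Genes that maintain imprints were also bound at their starts. Of 9, FGFR1 had a peak at 6 in replicate 1 and 7 in replicate 2 in RA, 5 of them in both, and at 1 in LIF. All 9 have a CpG island at a start, and of all such islands 53.4%, 52.9%, 41.2% and 17.6% had a peak, and 9 genes are too few to set these counts apart from those shares. The 5 were Zfp57 (−log10 p 13.5 and 18.1), Zfp445 (32.5 and 21.3), Trim28 (21.2 and 64.0), the maintenance methyltransferase Dnmt1 (13.7 and 84.9) and Ctcf (11.8 and 19.6). Trim28 encodes the corepressor that ZFP57 recruits, and it was the gene of this list with an FGFR1 peak in LIF (11.2). RXR had 3 in LIF (45.1% of all islands) and 1 in RA (24.1%). Nur77 had 3 in LIF (25.7%) and 3 in RA (25.2%), and H3.3 had 1 (15.7%). These counts are too small to set apart from the shares as well. Dppa3 had none in any list.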

How the data were processed

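Cells were crosslinked and immunoprecipitated with antibodies to FGFR1 (Abcam ab10646), RXR (SC-774), Nur77 (SC-5569) or H3.3 (ab62642), and cells of several plates were pooled. Per the labels and the study's methods, the authors aligned reads with Bowtie 1.0 to mm10, keeping reads with a single best place, and called peaks with MACS2 in each library separately, with no control library named. The deposited peak lists give, for each peak, its interval, a score, the fold over local background as a ratio, the −log10 p (lowest 5.0) and −log10 q, and the summit offset. The authors' −log10 p grows with depth, so it was compared between libraries only as given, and total reads are not held in the files. Fragments at the summit and background fragments were solved from fold and −log10 p and matched all peaks within 0.002.

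Genes, starts and exons came from GENCODE M21 and sequence from RefSeq GRCm38.p6. 0 peaks passed the end of a chromosome, and 3 of 3 transcript starts checked matched the genome. Peaks overlapped an item by at least 1 bp. CpG islands (at least 200 bp, GC at least 50%, observed to expected CpG at least 0.6) were found over the whole genome, and the one with the most CpG within 500 bp of a start was used for each of 23551 genes. Words were searched on both strands within 75 bp of summits. The overlap, island and fragment routines were tested on simulated data. No p-value was computed. Named peaks were those in a control region or within 1 kb of a member's start, the strongest of each member and, from the lists of further genes, those at a start in both FGFR1 libraries of RA. The 2 peaks of Kcnq1ot1 far from its start, the second Meg3 tract and the replicate 1 peak past the margin of the Peg10 island fall outside this rule. They were chosen after their values were seen. The members, lists and regions were chosen with earlier results of these data known. Alternatives were −log10 p of at least 10, −log10 q of at least 2, equal numbers of peaks, no tract peaks, summits inside, other margins, other overlap rules and each FGFR1 RA library left out. Python 3.11.15, pandas 2.3.3, scipy 1.17.1 and pysam 0.24.0 were used.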

Additional observations from a re-analysis of the deposited data

Results flagged for a closer look

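As deposited, counts at the imprinted genes were higher in RA than in LIF for FGFR1 and lower for RXR and Nur77. The number of members with a peak in the gene window differed by 4 in each FGFR1 library of RA, by -1 for RXR and by -1 for Nur77. Control regions with a peak differed by 3 and 4 for FGFR1, by -2 for RXR and by -2 for Nur77. Members with a start within 1 kb of a peak differed by 5 and 6 for FGFR1, by -1 for RXR and by -2 for Nur77. For Nur77 the direction turned under other settings: with −log10 p of at least 10, windows were 2 in LIF and 4 in RA and promoters 0 and 1, and with 10 kb on both sides windows were 5 and 6. The difference between factors was not tested, since each group but FGFR1 in RA had 1 library. Over all genes the shares with a peak moved too. Windows went from 17.7% to 42.5% and 29.9% for FGFR1, from 34.5% to 21.8% for RXR and from 26.9% to 29.0% for Nur77. Starts went, in the same order, from 8.32% to 25.8% and 23.6%, from 21.2% to 11.5% and from 12.9% to 13.1%. CpG islands at starts went from 17.6% to 53.4% and 52.9%, from 45.1% to 24.1% and from 25.7% to 25.2%. List sizes moved as well, from 11378 to 46137 and 14082 peaks for FGFR1 and from 30586 to 15224 for RXR. For Nur77 they moved from 22651 to 25995. The part of these moves in the member counts was not tested.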

How the results depend on the processing

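Of 190 recomputed counts, 161 stayed within 1.5 times the reported value. The −log10 q limit of 2 removed nothing, since the lowest value was 2.21, so the 27 counts under it could not move. With −log10 p of at least 10, 12 of 27 counts moved beyond 1.5 times, and with equal numbers of peaks 14 of 27 did. With −log10 p of at least 10, members with a peak in the window fell to 2 for FGFR1 in LIF, 2 for Nur77 in LIF and 1 for RXR in RA, control regions to 1, 2 and 0 for FGFR1, RXR and Nur77 in LIF and to 0 for RXR and Nur77 in RA, and promoters to 1 and 0 for FGFR1 and Nur77 in LIF and to 0 and 1 for RXR and Nur77 in RA. With 10634 peaks per list, windows fell to 2 for Nur77 in LIF and to 4, 1 and 1 for FGFR1 replicate 1, RXR and Nur77 in RA, control regions to 2 and 0 for RXR and Nur77 in LIF and to 3, 0 and 0 for FGFR1 replicate 1, RXR and Nur77 in RA, and promoters to 1 and 0 for FGFR1 and Nur77 in LIF and to 3, 0 and 0 for FGFR1 replicate 1, RXR and Nur77 in RA. Fewer peaks enter under both. Without tract peaks the window count of H3.3 was 0. With unwidened islands RXR in RA had 1 control region, and within 500 bp Nur77 in RA had 1 promoter. The FGFR1 means in RA of 8 windows, 6.5 control regions and 7.5 promoters ranged from 8 to 8, 6 to 7 and 7 to 8 when either library was left out.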
